A study of Mus musculus with 8 samples.

Results

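A set of 8 noncoding genes that carry small nucleolar RNAs (snoRNAs) in their introns were followed in myeloid cells of the spleen (SP) and bone marrow (BM) of autoimmune mice. The members were Gas5, Snhg1, Snhg3, Snhg5, Snhg8, Snhg12, Zfas1 and Epb41l4aos. They were taken by gene symbol from a table of 54188 genes, each symbol matched 1 row, and all 8 genes were among the 17650 genes that had enough reads to be tested. A snoRNA guides proteins to ribosomal RNA, where most box C/D snoRNAs direct the methylation of riboses and most box H/ACA snoRNAs direct the conversion of uridine to pseudouridine. In these host genes the intron carries the product, and the spliced exons code for no known major protein. The spliced RNA of several hosts starts with a run of pyrimidines, the 5′ terminal oligopyrimidine (5′TOP) motif that it shares with ribosomal protein mRNAs, and it is short-lived in translating cells because nonsense-mediated decay removes it. Gas5 got its name, growth arrest-specific, because its RNA accumulates in cells that stop dividing.

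Sanroque mice are homozygous for the san allele of Roquin (Roquin san/san) on the C57BL/6 background and develop a lupus-like disease. All 4 groups came from 20-week-old mice that carried this mutation, so the mutation cannot be told apart from anything the groups share, and wild-type cells were not analysed here. CD11b+ cells were sorted by Gr-1 into Gr-1hi cells, labelled granulocytic myeloid-derived suppressor cells (G-MDSC), and Gr-1lo cells, labelled monocytic ones (M-MDSC). Poly(A) RNA was sequenced by a strand-specific protocol in 2 libraries per group, namely replicates 5 and 6 of SP Gr-1hi, 7 and 8 of SP Gr-1lo, 9 and 10 of BM Gr-1hi, and 11 and 12 of BM Gr-1lo. No label ties a library to a mouse, and p values measure the spread between these libraries.

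The libraries held 33453580 to 68316154 counts on genes, so that 3 counts, the limit that a count of 0 allows, corresponded to 0.0348 to 0.124 CPM. CPM is the usual count relative to the library total, here with the total scaled by the TMM method. The sorted subsets carried their defining transcripts. Ly6g, which encodes a Gr-1 antigen of neutrophils, was at 330 to 801 CPM in the Gr-1hi libraries and at 3.07 to 8.23 CPM in the Gr-1lo libraries. Csf1r, the receptor of monocytes and macrophages, was at 133 to 375 CPM in Gr-1hi cells and at 436 to 754 CPM in Gr-1lo cells. Itgam, which encodes CD11b, was at 734 CPM or more in every library. All samples are labelled female, but Ddx3y, a gene of the Y chromosome, was at 33.7 to 82.7 CPM in 7 libraries and at 0 in SP Gr-1hi replicate 5. Xist, transcribed from the inactive X chromosome, had 12032 counts in SP Gr-1hi replicate 5 and 9898 in SP Gr-1lo replicate 7, and at most 5 in each of the other 6. Results are therefore also given without replicates 5 and 7, where each SP group keeps a lone library that is assumed to vary like the other groups.

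By the GENCODE M21 annotation of GRCm38, Gas5 lies at chr1:161034422-161038539, Snhg1 at chr19:8723475-8726443, Snhg12 at chr4:132308623-132311024 and Zfas1 at chr2:167062934-167065862 on the plus strand. Snhg3 lies at chr4:132348014-132353686, Snhg5 at chr9:88521050-88522929 and Snhg8 at chr3:123507552-123508404 on the minus strand. The start sites of the hosts are shown first, because the pyrimidine run at the start is the feature these RNAs are known for. Start windows of RefSeq (GRCm38.p6) were found for 7 of the 8 genes, with 2 windows for Gas5, of which the downstream one is shown. The 4 sequences run from 40 bases before the annotated start to 20 bases from it on, written 5′ to 3′ on the strand of the gene. Capitals mark a TATA that lies between 40 and 15 bases before the start, and a C followed by at least 4 further C or T that begins within 5 bases of the start. The windows were chr1:161035126-161035185 on the plus strand for Gas5, chr4:132308638-132308697 on the plus strand for Snhg12, chr3:123508317-123508376 on the minus strand for Snhg8 and chr19:8723447-8723506 on the plus strand for Snhg1.
Gas5: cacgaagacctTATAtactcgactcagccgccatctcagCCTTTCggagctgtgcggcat
Snhg12: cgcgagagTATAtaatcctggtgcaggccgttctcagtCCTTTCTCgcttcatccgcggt
Snhg8: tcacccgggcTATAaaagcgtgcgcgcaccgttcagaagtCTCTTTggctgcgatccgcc
Snhg1: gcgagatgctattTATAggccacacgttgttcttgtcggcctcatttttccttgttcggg
A pyrimidine run so placed was found in 4 of the 7 genes (Gas5, Snhg3, Snhg8 and Snhg12) and in 18.3% of all 32851 RefSeq windows. A TATA so placed was found in 5 of the 7 genes (Gas5, Snhg1, Snhg5, Snhg8 and Snhg12) and in 5.87% of all windows. CACGTG, the E-box that MYC can bind, which reads the same on both strands, was in 0 of the 8 windows of 300 bases and in 7.15% of all. Gas5, Snhg8 and Snhg12 held both the run and the TATA.

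The hosts were low in BM Gr-1hi cells, and 7 of the 8 had their highest mean in BM Gr-1lo cells, Snhg8 being highest in SP Gr-1hi cells. Summed over the 8 genes, the level was 179 ± 16.9 CPM (SD, n = 2) in BM Gr-1lo, 149 ± 8.02 in SP Gr-1lo, 108 ± 20.6 in SP Gr-1hi and 74.4 ± 3.33 in BM Gr-1hi. BM Gr-1hi cells therefore held 41.6% of the level of BM Gr-1lo cells. Gas5 made up the largest share of this sum in every group. In bulk samples, fewer cells of a type and less RNA per cell cannot be told apart.

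**Figure D1:**
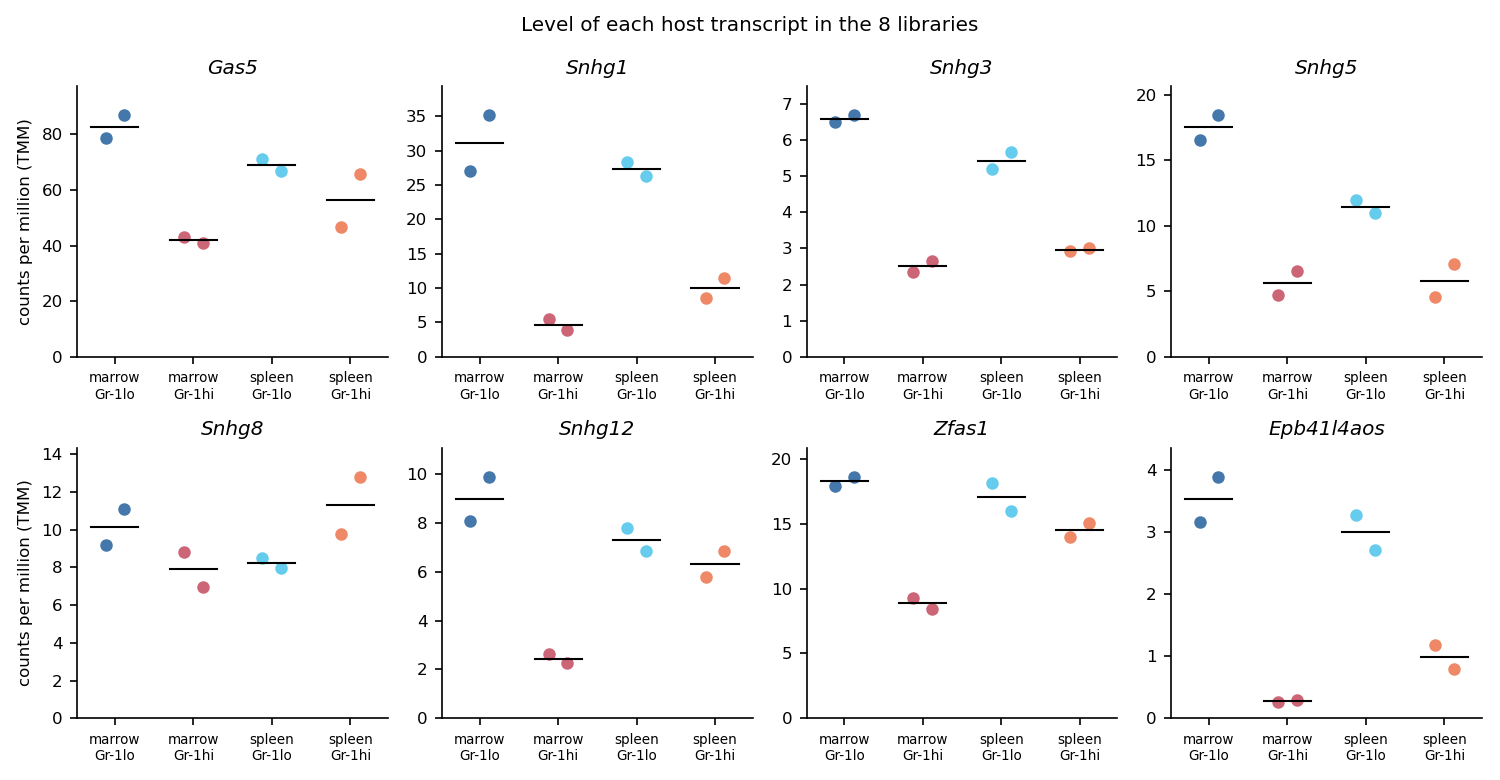
Level of each host transcript in CPM (vertical axis, from 0) in the 8 libraries; each point is a library, each bar the mean of 2 libraries, and colour marks the group. The 2 BM Gr-1hi libraries lie below both BM Gr-1lo libraries for all 8 genes, an order found in 48.2% of all genes tested, while Snhg12 and Zfas1 are near the Gr-1lo level in SP Gr-1hi cells.

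Per kilobase of annotated exon, Gas5 and Snhg8 led in each of the 4 groups. In BM Gr-1lo cells Gas5 was at 22.0 ± 1.59 CPM per kilobase, and it was followed by Snhg8 at 11.9 ± 1.59, Snhg1 at 10.5 ± 1.93, Snhg5 at 10.1 ± 0.771, Epb41l4aos at 8.19 ± 1.21, Snhg3 at 6.69 ± 0.139, Zfas1 at 6.24 ± 0.184 and Snhg12 at 3.74 ± 0.538 (SD, n = 2). Snhg8, Snhg1 and Snhg5 overlapped with their neighbours in that order. In BM Gr-1hi cells Gas5 was at 11.2 ± 0.410 CPM per kilobase and Snhg8 at 9.26 ± 1.53, whereas the other 6 were between 0.640 and 3.26, and only Snhg5 and Zfas1 overlapped as neighbours. In SP Gr-1lo cells the order was Gas5 at 18.4 CPM per kilobase, Snhg8 at 9.65 and Snhg1 at 9.20, which overlapped, Epb41l4aos at 6.96 and Snhg5 at 6.61, which overlapped, Zfas1 at 5.82 and Snhg3 at 5.51, which overlapped, and Snhg12 at 3.04. In SP Gr-1hi cells Gas5, at a mean of 14.97 CPM per kilobase, and Snhg8, at 13.3, overlapped. They were followed by Zfas1 at 4.96, by Snhg1 at 3.38, Snhg5 at 3.36 and Snhg3 at 3.003, neighbours that overlapped, and by Snhg12 at 2.63 and Epb41l4aos at 2.29, which overlapped. The exon lengths count every annotated exon, including retained introns, and cover the whole gene for Snhg1, Snhg8, Snhg12 and Zfas1, so the levels per length depend on which transcripts are expressed, which was not tested.

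Gr-1hi cells were compared with Gr-1lo cells of the same tissue to see how the hosts differ between the subsets. In BM, 7 of the 8 hosts were lower in Gr-1hi cells at an adjusted p of at most 0.05 (edgeR quasi-likelihood test, adjusted by Benjamini-Hochberg over all 17650 genes), against 41.2% of all genes tested. At a fold change (FC) of at least 2 as well, 6 hosts were lower, against 33.1% of all genes. Both Gr-1hi libraries were below both Gr-1lo libraries in all 8 hosts, against 48.2% of all genes. The median log2 FC of the 8 hosts was -1.52 and that of all genes tested was -0.18. Both medians depend on the scaling. With size factors of the RLE type the median was -0.03 for all genes and -1.37 for the hosts. With library totals alone it was -0.99 for all genes and -2.33 for the hosts, of which all 8 passed as lower, and the share of all genes that passed as lower went from 41.2% to 57.8% and the share that passed as higher from 34.5% to 19.5%.

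Epb41l4aos, which lies 341 bases beyond the 3′ end of Epb41l4a on the opposite strand, differed most. It was at 0.262 and 0.289 CPM in the BM Gr-1hi libraries and at 3.15 and 3.89 CPM in the BM Gr-1lo libraries. The libraries of both groups were far apart, but the lower values rest on 7 counts in each library. Its log2 FC was -3.67 ± 0.341 (SE, edgeR adjusted p = 1.33e-05), a 12.7-fold difference.

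Snhg1, the host of Snord22 and of 7 other annotated snoRNA genes, was at 5.53 and 3.84 CPM in the BM Gr-1hi libraries and at 27.1 and 35.2 CPM in the BM Gr-1lo libraries. The groups did not overlap, and the difference was larger than the gap between replicates of either group. Its log2 FC was -2.73 ± 0.220 (SE, edgeR adjusted p = 5.91e-06), so that Gr-1hi cells held 15.1% of the Gr-1lo level.

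Snhg12, which carries Snora16a, Snora44, Snora61 and Snord99, was at 2.62 and 2.27 CPM in BM Gr-1hi cells and at 8.07 and 9.90 CPM in BM Gr-1lo cells. Snhg5, the host of Snord50a and Snord50b, was at 4.71 and 6.56 CPM in BM Gr-1hi cells and at 16.6 and 18.4 CPM in BM Gr-1lo cells. Neither gene had overlapping groups. The log2 FC was -1.88 ± 0.192 for Snhg12 (SE, edgeR adjusted p = 2.43e-05) and -1.64 ± 0.225 for Snhg5 (edgeR adjusted p = 1.65e-04).

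Snhg3, the host of Snora73a and Snora73b, which act in the cleavage of the ribosomal RNA precursor, was at 2.36 and 2.64 CPM in BM Gr-1hi cells and at 6.49 and 6.69 CPM in BM Gr-1lo cells. Zfas1, a host of box C/D snoRNAs that starts within Znfx1 on the other strand, was at 9.27 and 8.46 CPM in BM Gr-1hi cells and at 17.9 and 18.6 CPM in BM Gr-1lo cells. Both fell in Gr-1hi cells without overlap between groups. The log2 FC was -1.40 ± 0.170 for Snhg3 (SE, edgeR adjusted p = 7.27e-05) and -1.04 ± 0.122 for Zfas1 (edgeR adjusted p = 5.72e-05). Zfas1 was close to the minimum FC and stayed under it in 6 of the other settings tried, with the fall kept in each.

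Gas5 was at 43.2 and 41.0 CPM in BM Gr-1hi cells and at 78.6 and 87.0 CPM in BM Gr-1lo cells. The groups did not overlap, and the difference of 1.97-fold fell just short of the minimum FC, with a log2 FC of -0.97 ± 0.151 (SE, edgeR adjusted p = 3.57e-04). Snhg8, the host of Snora24, was at 8.82 and 6.98 CPM in BM Gr-1hi cells and at 9.18 and 11.1 CPM in BM Gr-1lo cells. The groups were separate by a narrow margin, and its log2 FC of -0.36 had a 95% interval from -0.78 to 0.07 (edgeR adjusted p = 0.111).

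In SP the same comparison gave smaller differences. At an adjusted p of at most 0.05, 4 hosts were lower in Gr-1hi cells (Snhg1, Snhg3, Snhg5 and Epb41l4aos), against 37.8% of all genes, and with an FC of at least 2 there were 2 (Snhg1 and Epb41l4aos), against 27.4%. Snhg8 was higher, against 33.6% of all genes. The libraries did not overlap in 6 hosts that were lower, against 45.6% of all genes, and in Snhg8, which was higher, against 40.6%. The 2 of 8 called lower in SP were a share near that of all genes. The median log2 FC was -0.59 for the hosts and -0.09 for all genes, and with library totals alone it was -1.19 for the hosts and -0.69 for all genes, 53.0% of which then passed as lower and 20.3% as higher.

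Snhg1 was at 8.62 and 11.4 CPM in SP Gr-1hi cells and at 28.4 and 26.3 CPM in SP Gr-1lo cells, and its log2 FC was -1.45 ± 0.202 (SE, edgeR adjusted p = 2.33e-04). Epb41l4aos was at 1.18 and 0.797 CPM against 3.27 and 2.71 CPM, with a log2 FC of -1.59 ± 0.274 (edgeR adjusted p = 7.94e-04). In both genes the 2 Gr-1hi libraries were below the 2 Gr-1lo libraries. Snhg3 was at 2.92 and 2.998 CPM against 5.19 and 5.67 CPM (log2 FC -0.88 ± 0.163, edgeR adjusted p = 1.27e-03). Snhg5 was at 4.58 and 7.05 CPM against 11.9 and 11.0 CPM (log2 FC -0.98 ± 0.220, edgeR adjusted p = 3.67e-03). Both fell without overlap and missed the minimum FC.

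Snhg8 was at 9.79 and 12.8 CPM in SP Gr-1hi cells and at 8.51 and 7.95 CPM in SP Gr-1lo cells, the only host whose Gr-1hi libraries were above its Gr-1lo libraries. Its log2 FC of 0.46 ± 0.182 (SE, edgeR adjusted p = 0.0483) was at the edge of the threshold, and it became -0.15 when libraries were scaled by their totals alone. It no longer passed without replicate 6, at 0.23, or without replicate 7, 8, 9, 10, 11 or 12, at 0.39 to 0.48, with no filter on low counts, at 0.33, or with the 4 libraries alone, at 0.45. The remaining 3 hosts did not pass by edgeR with all 8 libraries, TMM scaling and the filter on low counts, and Snhg12 overlapped between the groups. Gas5 was at 46.7 and 65.8 CPM against 71.3 and 66.9 CPM (log2 FC -0.30, 95% interval -0.64 to 0.04). Zfas1 was at 14.0 and 15.1 CPM against 18.2 and 15.96 CPM (log2 FC -0.23, 95% interval -0.50 to 0.04), and Snhg12 was at 5.79 and 6.86 CPM against 7.79 and 6.84 CPM (log2 FC -0.21, 95% interval -0.61 to 0.19). With library totals all 3 passed as lower, Gas5 at -0.90, Zfas1 at -0.83 and Snhg12 at -0.81. With no filter on low counts Gas5, at -0.42 (edgeR adjusted p = 1.80e-03), and Zfas1, at -0.36 (edgeR adjusted p = 0.0431), passed as lower, and Snhg12, at -0.34, did not. Without replicates 5 and 7, the median log2 FC of the 8 hosts was -1.57 in BM and -0.38 in SP, and Gas5 was at -1.02 in BM.

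**Figure D2:**
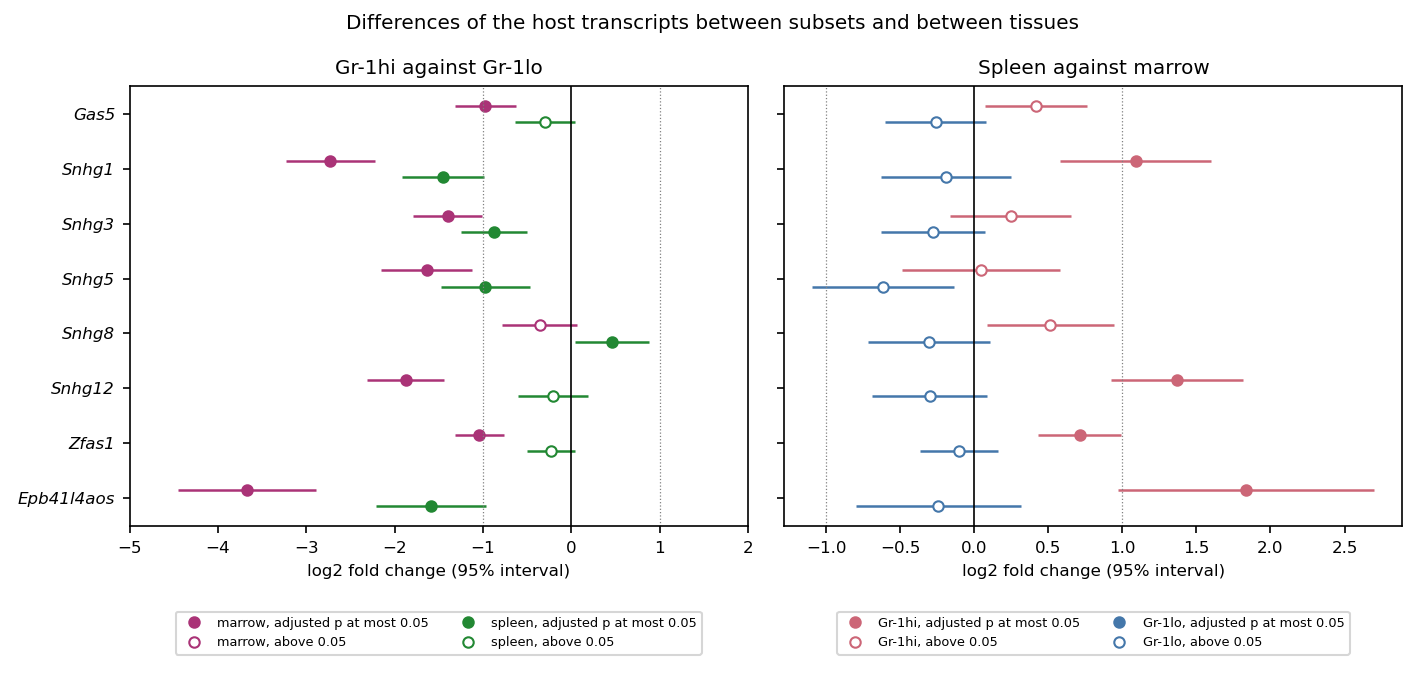
Log2 fold change of each host (horizontal axis) with its 95% interval, between Gr-1hi and Gr-1lo cells in each tissue (left) and between SP and BM in each subset (right); filled points passed an adjusted p of 0.05 and dotted lines mark a fold change of 2. Among Gr-1hi against Gr-1lo differences, the BM value lies left of the SP value for all 8 genes.

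The tissue comparison asks how cells of the spleen differ from their counterparts in BM. In Gr-1hi cells, all 8 hosts had a positive log2 FC of SP against BM, from 0.05 to 1.84, with a median of 0.61 against 0.03 for all genes (0.82 against 0.24 with library totals). Of these, 4 passed an adjusted p of at most 0.05, against 20.1% of all genes, and 3 of these also had an FC of at least 2, against 14.0%. Snhg12 was higher in SP by a log2 FC of 1.37 ± 0.195 (SE, edgeR adjusted p = 1.66e-03), Epb41l4aos by 1.84 ± 0.378 (edgeR adjusted p = 7.58e-03), Snhg1 by 1.09 ± 0.222 (edgeR adjusted p = 7.43e-03) and Zfas1 by 0.71 ± 0.123 (edgeR adjusted p = 3.76e-03). The 2 SP libraries were above the 2 BM libraries in each of these 4 genes and also in Gas5, Snhg3 and Snhg8, whose log2 FC of 0.42, 0.25 and 0.52 did not pass. Such an order was found in 35.9% of all genes. Gas5 and Snhg8 passed as higher under upper-quartile scaling (edgeR adjusted p = 0.0269 and 0.0379), with no filter on low counts and with library totals. The share of all genes that passed as higher was 22.2% with upper-quartile scaling and 27.7% with library totals. Snhg5 overlapped between the tissues at a log2 FC of 0.05 that turned to -0.03 with RLE scaling.

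The call of Snhg1 in this comparison rested on single libraries, since its log2 FC was 0.79 without SP Gr-1hi replicate 6, short of the minimum FC, and 0.75 without BM Gr-1hi replicate 10 (edgeR adjusted p = 0.0541). Without replicates 5 and 7, Snhg1 and Snhg12 were still called, and Epb41l4aos was at 1.54 (edgeR adjusted p = 0.0606).

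In Gr-1lo cells, none of the 8 hosts passed by edgeR with all 8 libraries and the filter on low counts, against 0.697% of all genes that were lower in SP. All 8 had a negative log2 FC, from -0.61 to -0.10, with a median of -0.27 against -0.01 for all genes. At an unadjusted p under 0.05 there was 1, Snhg5, and it was the one host that passed an adjusted p of 0.05 under any other setting. These were DESeq2 (adjusted p = 0.0457) and edgeR with no filter on low counts (adjusted p = 0.0123), with the 4 libraries compared alone (0.01597), without SP Gr-1hi replicate 5 (0.0471) and without replicate 6 (0.0494), while edgeR adjusted p values were between 0.0964 and 0.574 under the others. Snhg5 was at 11.9 and 11.0 CPM in SP and at 16.6 and 18.4 CPM in BM, without overlap (log2 FC -0.61, 95% interval -1.09 to -0.14, edgeR adjusted p = 0.150). The intervals of the other 7 reached from -0.80 at the lowest to 0.32 at the highest.

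The difference between tissues in the subset difference was tested as the interaction of tissue and subset, in which the log2 difference of Gr-1hi and Gr-1lo cells in BM was subtracted from that in SP. It was positive for all 8 hosts. An adjusted p of at most 0.05 was passed by 4, against 10.3% of all genes, and 3 of them had an FC of at least 2, against 7.74%. The interaction was 2.08 ± 0.453 for Epb41l4aos (SE, edgeR adjusted p = 0.0198), 1.67 ± 0.259 for Snhg12 (edgeR adjusted p = 6.19e-03), 1.28 ± 0.294 for Snhg1 (edgeR adjusted p = 0.0236) and 0.81 ± 0.169 for Zfas1 (edgeR adjusted p = 0.0168). The number called fell to 1 when any of SP Gr-1lo replicates 7 and 8, BM Gr-1hi replicate 10 or BM Gr-1lo replicate 12 was left out. Without replicates 5 and 7 there were 2, and Epb41l4aos was at 1.93 (edgeR adjusted p = 0.0864). These contrasts share libraries with each other and are not separate evidence.

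The 8 genes fell into different patterns over the 4 groups. Snhg12 and Zfas1 were lowest in BM Gr-1hi cells, with 2.44 ± 0.245 and 8.87 ± 0.572 CPM (SD, n = 2). The other 3 groups were at 6.32 ± 0.758 to 8.99 ± 1.29 CPM for Snhg12 and at 14.5 ± 0.736 to 18.3 ± 0.539 CPM for Zfas1. In Gas5, Snhg1, Snhg3, Snhg5, Zfas1 and Epb41l4aos, every Gr-1hi library was below every Gr-1lo library. The margin was narrow for Gas5, at 65.8 against 66.9 CPM, and for Zfas1, at 15.1 against 15.96 CPM. This order over both tissues was not counted for all genes, but within a tissue it was found in 48.2% of them in BM and 45.6% in SP. Snhg8 ranged only from 7.90 ± 1.31 to 11.3 ± 2.14 CPM. As a measure of likeness, log2 CPM was centred over the 8 libraries and the root mean square difference was taken. Gas5 and Zfas1 were the closest pair at 0.162, and Snhg8 and Epb41l4aos were the farthest apart at 1.37. From the mean profile of the 8 hosts, Snhg3 was the nearest at 0.208 and Epb41l4aos the farthest at 0.777.

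Of 8593 tested genes of at least 10 CPM outside the hosts, the 5 nearest to that mean profile were Srsf7, a splicing factor, at 0.0741, Nfatc2ip at 0.1104, St13, a co-chaperone of heat shock protein, at 0.121, Las1l, which takes part in ribosomal RNA processing, at 0.124 and Socs7 at 0.132. The nearest gene was Mrfap1 for Gas5, Anxa6 for Snhg1, Llph for Snhg3, Ddx20 for Snhg5, Kif23 for Snhg8, Wdr91 for Snhg12, Akap8 for Zfas1 and Zfp146 for Epb41l4aos, at 0.0457 to 0.184. The second was Snhg4, another noncoding host, for Gas5 and Rpl12, a ribosomal protein gene that also carries a snoRNA, for Epb41l4aos. The second for the others were Hs6st1, Cstf1, Nmd3, Ergic1, Exosc5 and Rubcn, and the third were Nfx1, Fundc2, Llph-ps2, Mrps17, Cks2, Ero1lb, Mrps15 and Wdr43.

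The counts on the snoRNAs themselves were then set beside those of their hosts. The annotation (GENCODE M21, GRCm38) places 32 snoRNA genes inside the 8 hosts, all 32 on the strand of the host, and each had a row in the table with counts. Poly(A) selection is not designed to capture these short RNAs without a poly(A) tail, and reads of 101 bases from fragments longer than a snoRNA can come from unspliced or intron-retaining host RNA, so the rows are described without a test and say nothing of the amount of mature snoRNA. Of the 32, 30 overlap, at least in part, stretches that some annotated host transcript keeps as exon. The Snord80 gene of Gas5 is annotated as 2 overlapping rows with near equal counts (51 and 50 in SP Gr-1hi replicate 5, 148 and 142 in SP Gr-1lo replicate 8), so reads may have been counted on more than 1 row, and counts on snoRNA rows may also be part of the host count.

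A snoRNA is shown for each of 4 hosts, 3 of box C/D and 1 of box H/ACA, to let the snoRNA rows counted next be seen. Capitals mark the TGATGA of box C near the 5′ end and the CTGA of box D near the 3′ end, or the ACA before the 3′ end. They lie at chr1:161038082-161038158 (Snord47, plus strand, in Gas5), chr2:167065276-167065365 (Snord12, plus strand, in Zfas1), chr9:88521529-88521600 (Snord50a, minus strand, in Snhg5) and chr3:123507937-123508066 (Snora24, minus strand, in Snhg8), and the sequences are those of the GENCODE M21 transcripts.
Snord47: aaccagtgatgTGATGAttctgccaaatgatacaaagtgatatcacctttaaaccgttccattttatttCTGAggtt
Snord12: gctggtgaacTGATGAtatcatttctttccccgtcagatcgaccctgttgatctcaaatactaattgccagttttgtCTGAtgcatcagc
Snord50a: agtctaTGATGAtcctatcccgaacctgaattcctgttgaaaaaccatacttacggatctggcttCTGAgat
Snora24: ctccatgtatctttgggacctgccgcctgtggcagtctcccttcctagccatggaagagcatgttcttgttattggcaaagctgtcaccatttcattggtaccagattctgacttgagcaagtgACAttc
By the letters alone, with CTGA or ACA at the expected end, 19 of the 31 snoRNA rows outside Epb41l4aos held both box C and box D, 6 held ACA and 6 held neither in this exact spelling.

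For every 100 counts on the host, Gr-1hi libraries had more counts on the snoRNA rows than Gr-1lo libraries. In Gas5 there were 39.1 and 52.8 snoRNA-row counts per 100 host counts in SP Gr-1hi replicates 5 and 6, 53.7 and 54.0 in the BM Gr-1hi libraries, 30.5 and 30.8 in the SP Gr-1lo libraries and 30.6 and 30.7 in the BM Gr-1lo libraries. The 4 Gr-1lo libraries were nearly equal, and each Gr-1hi library was above them. In Zfas1 the 4 Gr-1hi libraries had 20.5 to 36.3 and the 4 Gr-1lo libraries 6.46 to 13.5 snoRNA-row counts per 100 host counts. In Snhg8, whose own level ranged little, Snora24 had 144 and 127 counts in the SP Gr-1hi libraries, 72 and 173 in SP Gr-1lo, 90 and 58 in BM Gr-1hi and 77 and 109 in BM Gr-1lo. These counts overlapped between the groups, but relative to the host they did not. Snora24 gave 31.6 to 44.3 per 100 host counts in Gr-1hi and 17.2 to 25.2 in Gr-1lo libraries.

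The same order held in 7 of the 8 hosts, in which all 4 Gr-1hi libraries were above all 4 Gr-1lo libraries. The ranges were 35.1 to 49.5 against 19.4 to 27.8 in Snhg3, 40.9 to 47.3 against 24.9 to 33.7 in Snhg12, 55.6 to 75.0 against 47.9 to 54.8 in Snhg1 and 7.90 to 14.5 against 2.48 to 6.56 in Snhg5. Epb41l4aos was the exception, with 64 snoRNA-row counts in all libraries together and 0 in both BM Gr-1hi libraries, where its host had 7 counts each. Among 34 protein-coding snoRNA hosts, such as ribosomal protein genes, 16 had all Gr-1hi libraries above all Gr-1lo libraries and 0 had the opposite order. Of 8 other noncoding hosts with annotated snoRNA rows, 1 had that order and 1 the opposite, and 7 of these 8 had fewer than 200 snoRNA-row counts in all. The order was thus not particular to the 8 genes, and its cause was not tested.

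**Figure D3:**
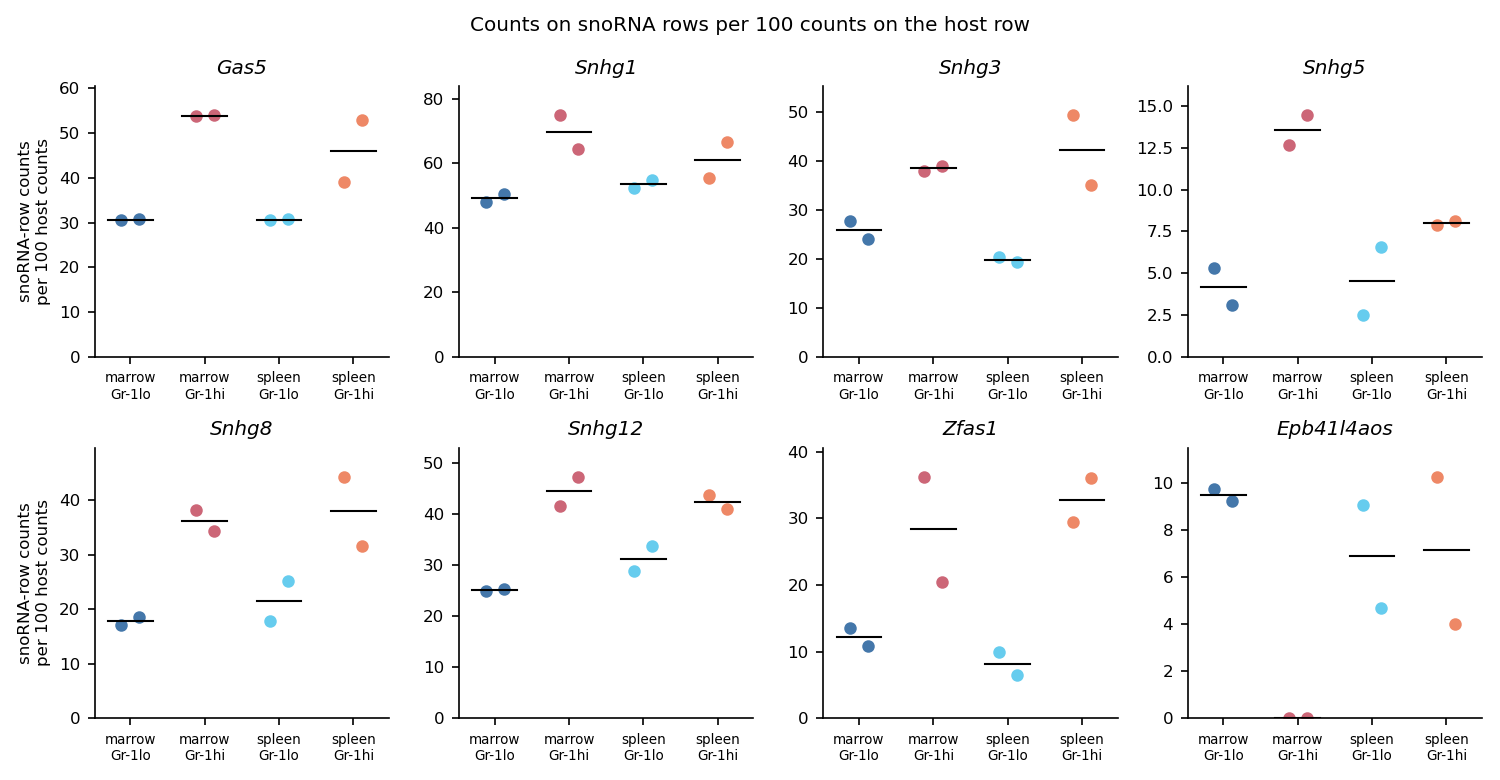
Counts on the snoRNA rows inside each host per 100 counts on the host row (vertical axis, from 0) in the 8 libraries; points are libraries, bars are means of 2 libraries. Gr-1hi libraries lie above Gr-1lo libraries in 7 genes, with Gas5 at 30.5 to 30.8 in all 4 Gr-1lo libraries, and Epb41l4aos rests on 64 counts.

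Since snoRNA-row reads can be part of the host count, the host counts were also tested after the snoRNA-row counts had been subtracted, an alternative chosen after these values were seen. The log2 FC of Gas5 between Gr-1hi and Gr-1lo cells of BM went from -0.97 to -1.56 (edgeR adjusted p = 1.51e-06). The number of hosts called lower went from 6 to 7 in BM, where 33.1% of all genes were called lower before the subtraction. In SP it went from 2 to 4, against 27.4% of all genes before the subtraction. Snhg3, at -1.35, and Snhg5, at -1.03, were the 2 added in SP. The counts subtracted from Snhg3 include those of Snora73b, which overlaps no annotated exon of its host. Its 29 and 23 counts in SP Gr-1hi replicates 5 and 6 need not be part of the Snhg3 count, so the call of Snhg3 is uncertain. Gas5, at -0.69 (edgeR adjusted p = 2.52e-04), and Zfas1, at -0.68 (edgeR adjusted p = 1.02e-03), then also passed as lower in SP without reaching the minimum FC, and Snhg8 went from 0.46 to 0.14 and no longer passed. In 7 of the 8 hosts the snoRNA-row share was higher in every Gr-1hi than in every Gr-1lo library. Subtraction was therefore bound to lower their log2 FC, so these changes restate that share and are not separate evidence. The size of the Gas5 difference depended on whether reads over its snoRNAs were counted.

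Genes next to the hosts did not all move with them. Zbtb37, a zinc finger gene whose start lies 427 bases from that of Gas5 on the opposite strand, was at 88.0 ± 6.07 CPM in BM Gr-1hi cells and at 18.2 ± 0.0548 CPM in BM Gr-1lo cells (SD, n = 2). It rose by a log2 FC of 2.27 ± 0.101 in BM (SE, edgeR adjusted p = 2.69e-07) and by 1.83 ± 0.0990 in SP (edgeR adjusted p = 1.44e-06), whereas Gas5 was lower in BM. Znfx1, which encodes a helicase and overlaps the start of Zfas1 on the opposite strand, rose by 0.84 ± 0.0988 in BM (edgeR adjusted p = 5.90e-05) and by 0.56 ± 0.0982 in SP (edgeR adjusted p = 9.14e-04). With library totals alone Zbtb37 was still higher in both tissues, at 1.46 and 1.23, whereas Znfx1 was at 0.03 and -0.04 and passed in neither. The library kit keeps the strand and the deposited table is named as stranded, though the setting of the counting is not given in the sources used here. Exons of Znfx1 and Zfas1 overlap on opposite strands, and their reads are told apart there only as far as the counting used the strand.

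Other neighbours fell with their host. Rcc1, which encodes a chromatin-bound exchange factor of Ran, lies on the strand of Snhg3 and shares exons with it, so that reads of these genes cannot be fully told apart and the values of Snhg3 are uncertain. Rcc1 fell in Gr-1hi cells at a log2 FC of -3.20 ± 0.158 in BM (SE, edgeR adjusted p = 4.13e-07) and -2.22 ± 0.150 in SP (edgeR adjusted p = 3.69e-06). Trnau1ap, which acts in selenoprotein synthesis and ends 739 bases from Snhg12 on the opposite strand, fell at -2.41 ± 0.134 in BM (edgeR adjusted p = 6.91e-07), fell at -1.41 ± 0.122 in SP, where Snhg12 did not pass, and rose in SP over BM Gr-1hi cells by 0.99 ± 0.138 (edgeR adjusted p = 1.42e-03). Slc3a2, the heavy chain of amino acid transporters, starts 106 bases from Snhg1 and had a log2 FC of -0.27 ± 0.0894 in BM (edgeR adjusted p = 0.0231) and of -0.18 in SP, where it did not pass, but of -1.08 and -0.78, which both passed, with library totals. With RLE scaling it passed in neither tissue. Phactr4 near Snhg3 fell at -0.43 in BM and -0.42 in SP, and at -1.24 and -1.02 with library totals. Gm27494 inside Zfas1 did not pass in either tissue, at -0.64 and 0.06, but it passed in BM at -1.44 with library totals. Epb41l4a and Prss12, the neighbours of Epb41l4aos and Snhg8, had too few counts to be tested.

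The hosts were set beside lists of genes that act in the same pathway, for which each value is a log2 FC and "passed" stands for an adjusted p of at most 0.05 by edgeR over all genes. Box C/D and H/ACA snoRNAs work as ribonucleoproteins (snoRNPs), and all 8 core proteins of these particles were called lower in Gr-1hi than in Gr-1lo cells of both tissues, with log2 FC medians of -3.73 for BM and -1.78 for SP. Fbl, the methyltransferase fibrillarin, fell at a log2 FC of -4.50 ± 0.186 in BM (SE, edgeR adjusted p = 2.04e-07) and at -2.58 in SP. Nop58 fell at -4.12 in BM, Nop56 at -3.52 in BM and Nhp2 at -2.68 in SP, while Snu13 fell least, at -1.93 in BM. In SP over BM Gr-1hi cells, 7 of the 8 passed as higher, led by Gar1 at 1.99 ± 0.294 (edgeR adjusted p = 1.90e-03) and Nop58 at 1.604. Dkc1, the pseudouridine synthase dyskerin, fell at -3.76 in BM, and it and Nop58 were the 2 core proteins that passed as lower in SP over BM Gr-1lo cells, at -0.78 and -0.66.

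Of 12 snoRNP assembly factors, 12 passed as lower in Gr-1hi cells of both tissues, with Shq1 at -5.07 and Naf1 at -4.51 in BM and at -3.07 and -2.72 in SP. The most abundant of them, Pih1d1, Tgs1 and Ruvbl2, differed less, at -0.41, -1.34 and -1.43 in BM. Compared with BM, SP Gr-1hi cells had 6 of the 12 at a higher level that passed, with Znhit6 at 1.92 and Naf1 at 1.80, and in Gr-1lo cells 2 passed as lower, Nolc1 at -0.63 and Ruvbl1 at -0.52.

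Protein-coding hosts of snoRNAs were also lower in Gr-1hi cells. Of these genes, Nop56 and Dkc1 also stand among the core proteins above, and Eef2, Eef1b2 and Rack1 among the 5′TOP mRNAs that follow. Of 34, 32 passed as lower in Gr-1hi cells of both tissues, with medians of -2.07 for BM and -1.42 for SP. Dkc1 and Rpl12, at -3.68, fell most in BM, and Rps2, at -2.10, and Rpsa, at -2.08, fell most in SP. Eef2 and Hspa8, the most abundant, fell at -1.67 and -1.72 in BM. Eif4a2, an initiation factor paralog, rose by 0.72 in BM and 0.57 in SP, and Prrc2a rose by 0.40 and 0.22, but with library totals Eif4a2 was at -0.10 and -0.04, which did not pass, and Prrc2a was lower, at -0.41 and -0.38. Between tissues, 27 of the 34 passed as higher in SP Gr-1hi cells, with Wdr43 at 1.88 and Gnl3 at 1.78, and in Gr-1lo cells Dkc1 and Ncl, at -0.48, were lower.

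Of 13 other noncoding hosts listed, 12 had a row in the table and 8 were tested, of which 6 passed as lower in BM Gr-1hi cells and 4 in SP. Snhg15, Snhg16 and Snhg17 fell at -3.64, -3.52 and -3.35 in BM, and Snhg4, the most abundant at a mean of 51.4 CPM, fell at -0.83. Snhg16 and Snhg6 fell most in SP, at -1.62 and -1.61. In SP over BM Gr-1hi cells 5 passed as higher, with Snhg15 at 2.35 and Snhg17 at 2.00.

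Other mRNAs with a 5′TOP motif that encode no ribosomal protein were lower as well. All 15 passed as lower in Gr-1hi cells of both tissues, with Npm1 at -3.85 and Rack1 at -2.94 in BM and at -1.98 and -1.94 in SP. The abundant Eef1a1 fell at -2.37 and Tpt1 at -0.89 in BM. Of the 15, 10 passed as higher in SP over BM Gr-1hi cells, with Npm1 at 1.42 and Eef1g at 1.07. Of 12 regulators of 5′TOP mRNAs and growth, 5 passed as higher and 5 as lower in BM Gr-1hi cells, which turned to 1 higher, Larp4b, and 9 lower with library totals. Larp1, which binds the 5′TOP motif, fell at -2.52 in BM and -1.90 in SP, and Rptor fell at -1.68 in SP. Larp4b and Eif4ebp1 rose by 1.54 and 1.07 in BM and by 0.81 and 1.31 in SP, and the most abundant, Eif4ebp2, rose by 0.85 in BM. Myc fell at -3.83 in BM and was at -0.27 in SP, where it did not pass (edgeR adjusted p = 0.172), and it was higher in SP over BM Gr-1hi cells by 2.37 and lower in Gr-1lo cells at -1.18. Also in SP over BM Gr-1hi cells, Larp1 rose by 0.48, and Larp4b and Larp4 fell at -0.67 and -0.53.

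Nonsense-mediated decay factors, the proteins that remove spliced host RNA, had a direction that depended on the scaling. Of 10, 6 passed as higher and 2 as lower in BM Gr-1hi cells, and 5 as higher and 1 as lower in SP. With library totals alone this turned to 2 higher (Upf2 at 0.65 and Smg9 at 1.19) and 6 lower in BM, and to 1 higher (Upf2 at 0.92) and 7 lower in SP, so only Upf2 rose in both tissues under either scaling. With TMM scaling, Smg9 rose by 2.01 and Upf2 by 1.47 in BM and by 1.03 and 1.52 in SP, and the abundant kinase Smg1 rose by 0.96 and 0.82. Upf1, the central helicase, was at 0.07 in BM, where it did not pass, and rose by 0.30 in SP. Smg5 fell at -0.67 in BM and at -0.76 in SP, and Upf3b at -0.67 in BM. In SP over BM Gr-1hi cells 3 of the 10 passed as lower, with Smg9 at -0.82 and Upf3a at -0.41.

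**Figure D4:**
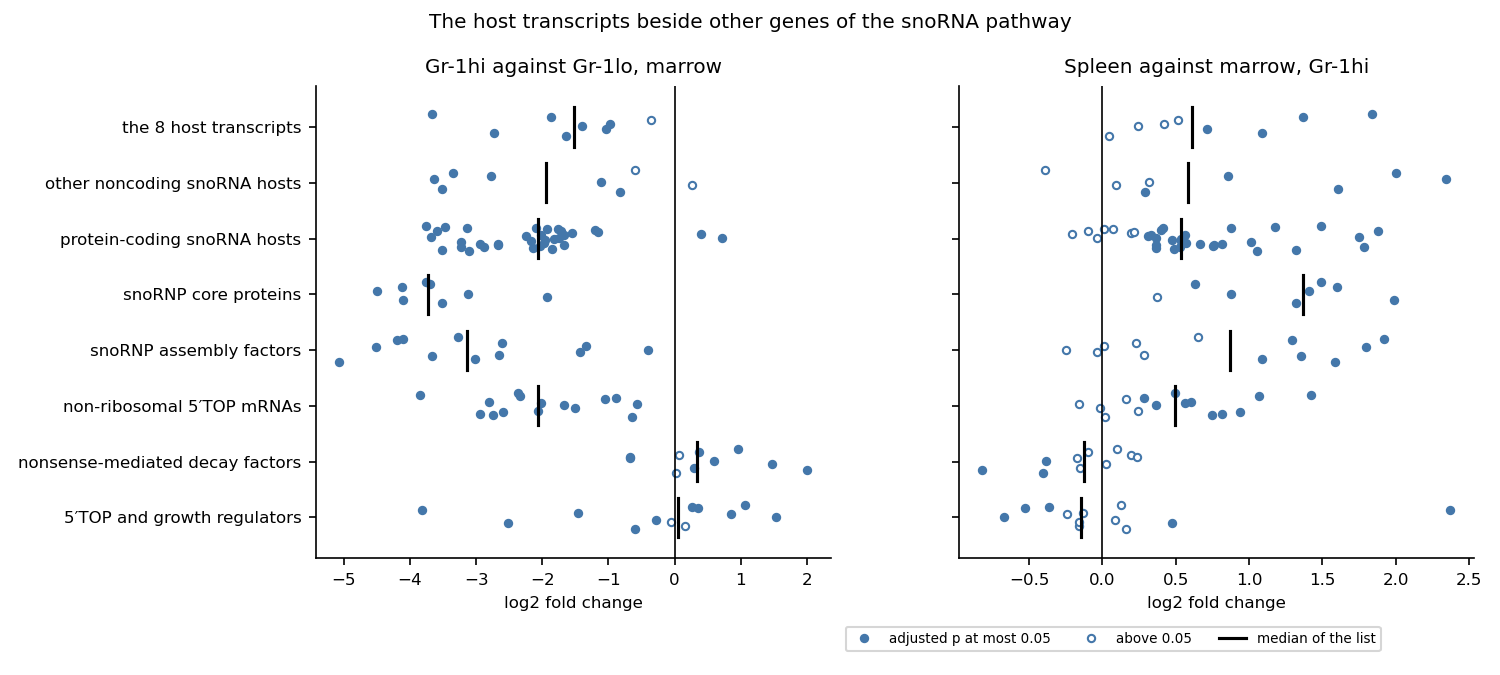
Log2 fold change of each tested gene (points, horizontal axis) by list, for Gr-1hi against Gr-1lo cells of BM (left) and SP against BM Gr-1hi cells (right); filled points passed an adjusted p of 0.05, and black bars are list medians. The median of the 8 hosts is -1.52 on the left and 0.61 on the right, and the medians of the snoRNP core proteins, -3.73 and 1.37, lie farther from 0.

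Markers of other cells and stages moved with the same groups. All 10 cycling genes passed as lower in Gr-1hi cells of both tissues, with summed levels of 345 to 425 CPM in SP Gr-1hi, 372 to 567 in BM Gr-1hi, 2049 to 2076 in SP Gr-1lo and 2476 to 2777 in BM Gr-1lo, and 0 of them were at 0 in any library. Across tissues, 3 of the 10 passed as higher and 0 as lower in SP over BM Gr-1hi cells, but the median log2 FC of the 10 was -0.38. All 5 genes of primary granules, which mark immature neutrophils, passed as lower in Gr-1hi cells too, with sums of 12.4 to 43.3 CPM in the Gr-1hi and 1200 to 3289 CPM in the Gr-1lo libraries. Monocyte genes passed as lower in Gr-1hi cells for 7 of 8 genes in BM and 8 of 8 in SP, with sums of 1050 to 1754 against 6546 to 9909 CPM. All 9 mature neutrophil genes passed as higher, with sums of 69609 CPM or more against 7682 or less, and of 6 secondary granule genes 5 passed as higher in BM and 4 in SP, with sums of 35008 CPM or more against 16978 or less.

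Lymphocyte, plasma cell and erythroid transcripts differed between the tissues. In SP over BM Gr-1hi cells, 10 of 10 B cell genes, 9 of 10 T cell genes, 6 of 6 tested plasma cell genes and 6 of 7 tested erythroid genes passed as higher. In SP over BM Gr-1lo cells, 9 of 10 B cell genes, 10 of 10 T cell genes, 4 of 6 tested plasma cell genes and 7 of 7 tested erythroid genes passed as higher. The B cell genes summed to 610 CPM in SP Gr-1hi replicate 5, 411 in replicate 6, 75.9 to 96.6 in SP Gr-1lo, 17.0 to 20.8 in BM Gr-1hi and 8.60 to 10.6 in BM Gr-1lo, where 1 of the 10 was at 0 in replicate 11. The T cell genes summed to 120 and 74.8 CPM in SP Gr-1hi replicates 5 and 6, and to 38.7 or less elsewhere. The plasma cell genes summed to 286 to 389 CPM in SP Gr-1hi and 101 to 102 in BM Gr-1hi, and the erythroid genes to 218 to 735 and 35.9 to 44.1 CPM. Of the SP Gr-1hi libraries, replicate 5 had the higher B and T cell sums and the lower sum of the 8 hosts, 93.6 against 123 CPM. Neutrophil and monocyte genes differed between the tissues too. In SP over BM Gr-1hi cells, 5 of 6 secondary granule genes passed as lower (median log2 FC -0.77), as did 3 of 5 primary granule genes (median -1.65) and 4 of 9 mature neutrophil genes, of which 1 was higher (median -0.68). Of 8 monocyte genes, 3 passed as higher and 1 as lower. In Gr-1lo cells, 3 of 6 secondary granule and 3 of 9 mature neutrophil genes passed as higher in SP and 1 of 5 primary granule genes as lower. With library totals, secondary granule genes that passed as lower in SP over BM Gr-1hi cells went from 5 to 1. The part of these other cells and stages in the levels of the hosts was not tested.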

How the data were processed

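The authors checked reads with FastQC, aligned them to GRCm38 with STAR and counted them per gene with featureCounts and a GENCODE annotation. The deposited table holds raw counts, whole numbers without normalization, for 54188 genes in 8 libraries of 33453580 to 68316154 counts. Whether reads that overlap several features were counted on each is not given in the sources used here. The floor of 3 counts covers counting error only, whereas intervals of a log2 FC come from the fit and include the spread between libraries. From these counts edgeR 4.0.16 (R 4.3.3) kept 17650 genes by filterByExpr and set TMM factors. A mean for each of the 4 groups was estimated by robust quasi-likelihood from the 8 libraries together, which leaves 4 residual degrees of freedom. Benjamini-Hochberg adjustment covered every gene tested. The threshold was an adjusted p of 0.05 ("passed"), and an FC of 2 on top of it ("called"). The libraries of a group differed by far more than sampling noise, so none was counted as a duplicate. The script was tested on simulated counts.

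The 8 genes and all lists were chosen with earlier results of these data known. Named genes were the 8 hosts, tested genes that overlap them or lie within 5 kb, and from each pathway list the 3 of highest mean CPM and, per comparison, the 2 largest rises and falls among genes that passed. The 5 genes nearest to the mean profile of the hosts, the 3 nearest to each host, and Xist, Ddx3y, Ly6g, Itgam and Csf1r as checks were also named. Not every gene that met this rule is reported here. Gene positions and exon lengths came from GENCODE M21, in which 53947 of the 54188 gene identifiers of the deposited table were found, and start windows from RefSeq. Alternatives were RLE and upper-quartile scaling, DESeq2 1.42.0, no filter on low counts, the 4 libraries compared alone, other thresholds, and leaving out each library or replicates 5 and 7. Scaling by library totals and subtraction of snoRNA-row counts were added after seeing the data.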

Additional observations from a re-analysis of the deposited data

Results flagged for a closer look

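The subset difference itself differed between the tissues, by the interaction test of edgeR with Benjamini-Hochberg adjustment, in 4 of the 8 hosts, against 10.3% of all genes. Without SP Gr-1lo replicate 8, BM Gr-1hi replicate 10 or BM Gr-1lo replicate 12 only 1 of the 8 passed, and 2 passed without SP Gr-1lo replicate 7. The interaction, SP difference minus BM difference on the log2 scale, was 1.28 for Snhg1, 1.67 for Snhg12, 0.81 for Zfas1 and 2.08 for Epb41l4aos, at adjusted p values of 0.0236, 0.00619, 0.0168 and 0.0198. In each of them the Gr-1hi level was nearer to the Gr-1lo level in SP than in BM. Among neighbours of the hosts it was 0.98 for Rcc1 and 1.0 for Trnau1ap, at adjusted p values of 0.0192 and 0.0105.

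From each pathway list, only the 2 largest rises and falls that passed the same test are named here, 12 genes in all. More genes of these lists passed as higher, against 10.3% of all genes. They were 5 of 8 tested noncoding hosts, 26 of 34 protein-coding hosts, 7 of 8 core proteins, 7 of 12 assembly factors and 8 of 15 5′TOP mRNAs. In these lists 0 passed as lower. The interaction was 2.95 for Snhg15 and 2.45 for Snhg17 among noncoding hosts, and 2.34 for Gnl3 and 2.27 for Dkc1 among protein-coding hosts. It was 2.39 for Gar1 among core proteins, and 2.38 for Znhit6 and 2.00 for Shq1 among assembly factors. It was 1.87 for Npm1 and 1.23 for Eef1g among 5′TOP mRNAs. Of the regulators, Myc had 3.55, the highest of the 12, and Larp4b and Tsc2 had -0.72 and -0.45. Markers of B cells, T cells and plasma cells were higher in SP than in BM Gr-1hi cells, with the values given above, and their part in these differences was not tested.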

How the results depend on the processing

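No paired analysis was possible because the groups compared share no replicate numbers. In BM, the number of hosts called lower in Gr-1hi than in Gr-1lo cells was 6, and it was 5 to 8 under every alternative except an adjusted p under 0.01 with an FC over 8, which left 1. Of all genes, 33.1% in BM and 27.4% in SP were called lower in the main setting, the only one for which this share was taken. In SP the number of hosts called was 2, and it became 4 with no filter on low counts and 4 with library totals in place of scaling factors. It was 4 with snoRNA-row counts subtracted, 5 with no minimum FC (Snhg8 being the one that was higher) and 0 with the FC over 8. It also rose in some settings with a single library left out. For SP over BM Gr-1hi cells it was 3, against 14.0% of all genes called higher in the main setting, and stayed at 2 to 4. For Gr-1lo cells it was 0 throughout. The interaction had 3, against 7.74% of all genes called higher in the main setting, went to 5 with library totals and ranged from 1 to 3 when single libraries were left out. Signs turned in these cases only. Snhg5 in SP over BM Gr-1hi cells went from 0.0462 to -0.0298 with RLE scaling and to -0.0302 with DESeq2, and ranged from -0.37 to 0.34 over libraries left out. Snhg1 in SP over BM Gr-1lo cells ranged from -0.36 to 0.0156, the positive value being without BM Gr-1lo replicate 12. Snhg8 between the SP subsets went from 0.46 to -0.15 with library totals. None of these values that turned passed the threshold after the change, and the causes were not tested. Of the values of single hosts under alternatives, 586 kept their direction and their side of the threshold, 21 were no longer called, 19 were newly called and 6 turned. With 2 libraries per group, and 7 counts for Epb41l4aos in each BM Gr-1hi library, small differences could not be measured well.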
